A study of Homo sapiens with 26 samples.

Results

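The genes of DNA replication and the G1/S transition were examined as a module of 43 members, chosen by name from the 63086 genes that the count files list. They comprise 5 genes of origin licensing, the 6 subunits of the MCM2-7 helicase, 6 genes of helicase activation, 9 polymerase and primase genes, 6 genes of the sliding clamp and its loader, 3 subunits of the single-strand DNA binding complex, 2 genes of Okazaki fragment joining, 4 genes of nucleotide supply and the G1/S regulators CCNE1 and E2F1. All 43 were found by symbol, and 42 of them were among the 9099 protein-coding genes tested. POLA2 was the exception, as it passed 10 CPM, the count relative to the scaled library total, in only 1 of 24 libraries.

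The study asked how phosphomimetic changes in the disordered linkers of IGF2BP1, an RNA-binding protein, alter RNA levels in HCT116 cells, a human colorectal carcinoma line. All 24 libraries of the main comparison came from cells labelled IGF2BP2 KO, IGF2BP3 KO and Tet-OsTIR1-PURO that carried mCherry-IGF2BP1 on a lentiviral transgene. The transgene was wild type (WT), S181E or Y396E, in which glutamate replaces a serine or tyrosine that can be phosphorylated, or RQ, in which linker arginines are replaced by glutamine. Each population was collected after 2 h in 500 µM sodium arsenite, an inducer of oxidative stress, or after addition of PBS (control), with 3 libraries per group from dishes grown independently. The knockouts were made through sorted cell clones, and each transgene population is 1 sorted pool, so a difference between populations cannot be told apart from a difference between the pools. A control and an arsenite library of parental HCT116 cells, 1 each, were described without a test. Poly(A) RNA came from clarified lysate, so transcripts removed by the centrifugation were not measured.

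Origins are licensed in G1, when ORC, CDC6 and CDT1 load MCM2-7 double hexamers onto DNA. At the start of S phase CDC45 and the GINS complex turn the loaded MCM ring into the active helicase, and primase, the polymerases, the PCNA clamp, RPA and the ligases then copy the DNA behind it. Many of these genes are transcribed at the G1/S border by E2F factors once cyclin E and the cyclin-dependent kinases have released them from RB, so their mRNA levels are often read together. In bulk RNA, a larger share of cells in a cell cycle phase and more RNA per cell cannot be told apart.

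Depth ranged from 22508145 to 50834401 counts per library. IGF2BP1 RNA was at 10.6 to 48 CPM in the 24 transgenic libraries and at 0.348 and 0.646 CPM in the parental ones. IGF2BP2 RNA was at 62.3 to 91.3 CPM in the transgenic libraries, below the parental 121 (control) and 151 CPM (arsenite). IGF2BP3 RNA was at 109 to 166 CPM, beside 92.4 and 110 CPM in the parental control and arsenite libraries. RNA counts do not test a small edit in the coding sequence. The epithelial markers KRT8 and KRT18 were at no less than 823 and 686 CPM in every library, whereas PTPRC of leukocytes reached at most 0.025 CPM, PECAM1 of endothelium at most 0.208 CPM and COL1A1 of fibroblasts 6.55 to 11.5 CPM. Y396E arsenite replicate 3 counted 13897 genes above 0, where every other library counted 20850 or more, and its members scattered most around their group means (SD 0.16 on the log2 scale). WT control replicate 2 held the lowest replication gene levels of its group, with MCM2-7 at 568 CPM in sum where the highest WT control library had 757 CPM. Calls lost without either library are given with the results, as are the larger changes in counts.

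In WT control cells the members spanned a wide range of levels per kilobase of exon (CPM per kb). PCNA, the sliding clamp, was highest at 231 ± 9.08 CPM per kb (SD, n = 3). The thymidylate enzymes TK1 and TYMS followed at 196 ± 10.4 and 192 ± 4.35 CPM per kb and did not differ from each other beyond their spread. Among the MCM subunits MCM7 was highest at 58.7 ± 7.82 CPM per kb. MCM3, MCM5, MCM4, MCM2 and MCM6 lay between 31.3 ± 4.01 and 18.1 ± 2.67 CPM per kb. The library ranges of neighbours in that order overlapped, although MCM5, MCM4, MCM2 and MCM6 kept the order within each WT control library. The catalytic polymerase subunit POLA1 was near the lower end at 2.23 ± 0.167 CPM per kb, and its partner POLA2 was lowest at 0.74 ± 0.143 CPM per kb.

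Compared with WT, control cells with S181E or Y396E held more RNA of most replication genes, and cells with RQ did not. In S181E, 36 of the 42 tested members were called higher and 1, MCM4, lower, where called means an adjusted p under 0.05 and a fold change above 1.2. In the same comparison 15.7% of all tested genes were called higher and 15.4% lower. The members' median log2 change was 0.41, beside 0.02 for all tested genes. In Y396E, 32 members were called higher and MCM4 lower (background 14.5% higher and 14.2% lower), with a median of 0.37. S181E and Y396E share the 3 WT control libraries, so their counts are not independent of each other. Scaling by library totals alone moved the median of all genes up by 0.16 in S181E and 0.13 in Y396E, and left 37 and 36 members called higher. Under that scaling 83.6% and 81.1% of all called genes were higher, against 50.4% and 50.5% with trimmed-mean scaling.

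**Figure D1:**
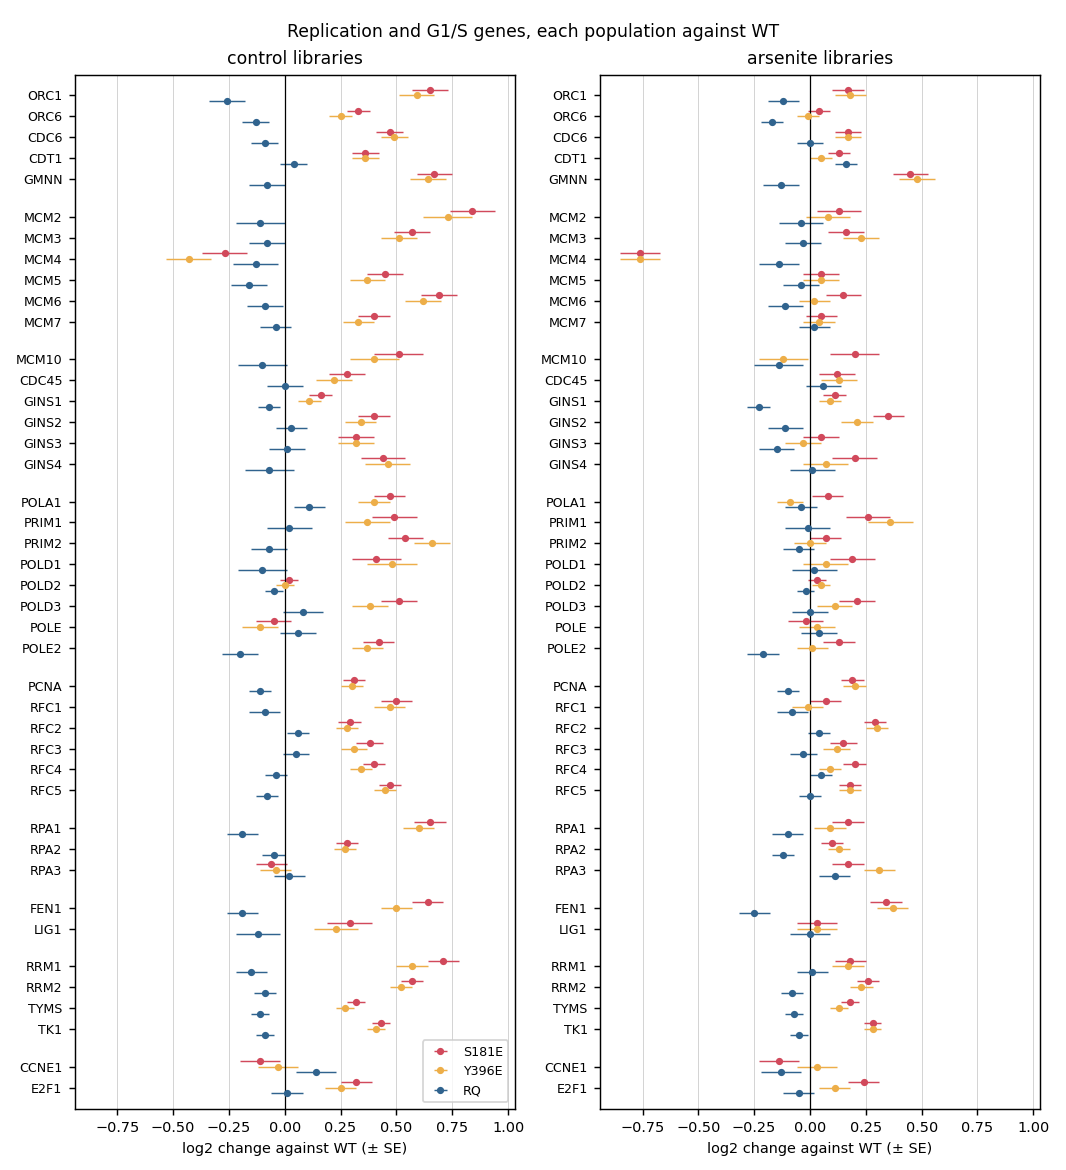
Log2 change of each tested member against WT (x axis, error bars SE) in control libraries (left) and arsenite libraries (right), for S181E, Y396E and RQ, with members grouped by role. In control, S181E and Y396E points lie near medians of 0.41 and 0.37 except for MCM4 at -0.27 and -0.43, while RQ points lie between -0.26 and 0.14.

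All 5 licensing genes were higher in S181E control cells and 4 of 5 in Y396E. GMNN, the geminin inhibitor of CDT1, had the largest change of this role. Its level was 45, 42.2 and 43.3 CPM in the WT control libraries, 68.8, 68.6 and 70.4 in S181E, 61.3, 69 and 73.4 in Y396E and 41, 41.7 and 41.2 in RQ. All S181E and Y396E libraries lay above all WT libraries, with log2 changes of 0.67 (SE 0.08, adjusted p = 2.65e-07) and 0.64 (SE 0.08, adjusted p = 6.15e-07). ORC1, the largest subunit of the origin recognition complex, was at 16.3, 14.3 and 17.7 CPM in WT, 25.3, 24.7 and 26 in S181E and 23.4, 24.1 and 25.4 in Y396E. Neither overlapped WT, and the log2 changes were 0.65 (SE 0.08) and 0.59 (SE 0.08). The loaders CDC6 and CDT1 were higher by 0.47 and 0.36 in S181E and by 0.49 and 0.36 in Y396E, and ORC6 was called in S181E (0.33) and lay below the fold threshold in Y396E (0.25). The difference between S181E and Y396E itself did not pass the test for any member.

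In the helicase, MCM2 showed the largest change of all members. Its level was 78.2, 54.3 and 82.1 CPM in WT control libraries, 126, 122 and 138 in S181E, 117, 113 and 128 in Y396E and 72.3, 53.4 and 72.9 in RQ. The S181E and Y396E libraries all lay above WT, whose replicate 2 was low, and the log2 changes were 0.84 (SE 0.10, adjusted p = 5.61e-07) and 0.73 (SE 0.11, adjusted p = 5.06e-06). MCM6, MCM3, MCM5 and MCM7 were higher by 0.69, 0.57, 0.45 and 0.40 in S181E and by 0.62, 0.51, 0.37 and 0.33 in Y396E. Without WT control replicate 2, MCM5 (0.23) and MCM7 (0.22) fell below the fold threshold in Y396E.

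MCM4 was the only member called lower in S181E and Y396E control cells, and it lies on chromosome 8 (47960898 to 47978160 in hg38). Its level was 112, 82.7 and 107 CPM in WT control libraries, 83.6, 80.9 and 86.3 in S181E, 69.3, 72.6 and 82 in Y396E and 98.1, 77.8 and 99.4 in RQ. The S181E libraries overlapped WT through WT replicate 2, whereas all Y396E libraries lay below WT. The log2 change was -0.27 in S181E (SE 0.10, 95% interval -0.48 to -0.06, adjusted p = 0.0244) and -0.43 in Y396E (SE 0.10, adjusted p = 0.000915). The S181E call was lost under scaling by totals (-0.12) and without WT control replicate 1 (-0.18). It was also lost at similar sizes without WT control replicate 3 (-0.23), S181E control replicate 1 (-0.27) or S181E control replicate 2 (-0.25), where the adjusted p was 0.0924, 0.0562 and 0.0764.

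Because the subunits assemble in a fixed ratio, MCM4 was also set against its partners within each library. The ratio of MCM4 to the median of the other 5 subunits, per kb, was 0.802, 0.822 and 0.757 in WT control libraries, 0.454, 0.468 and 0.496 in S181E, 0.429, 0.451 and 0.477 in Y396E and 0.851, 0.761 and 0.801 in RQ. S181E and Y396E did not overlap WT or RQ, and the ratio does not depend on the scaling between libraries. In arsenite the mean ratios were 0.903 ± 0.026 (WT), 0.844 ± 0.0433 (RQ), 0.487 ± 0.0114 (S181E) and 0.508 ± 0.0873 (Y396E), with the SD of 3 libraries. The Y396E arsenite libraries were at 0.451, 0.466 and 0.609, and the last is replicate 3, the library that counted the fewest genes. Parental cells were at 0.858 in control and 0.97 in arsenite, near or above WT.

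**Figure D2:**
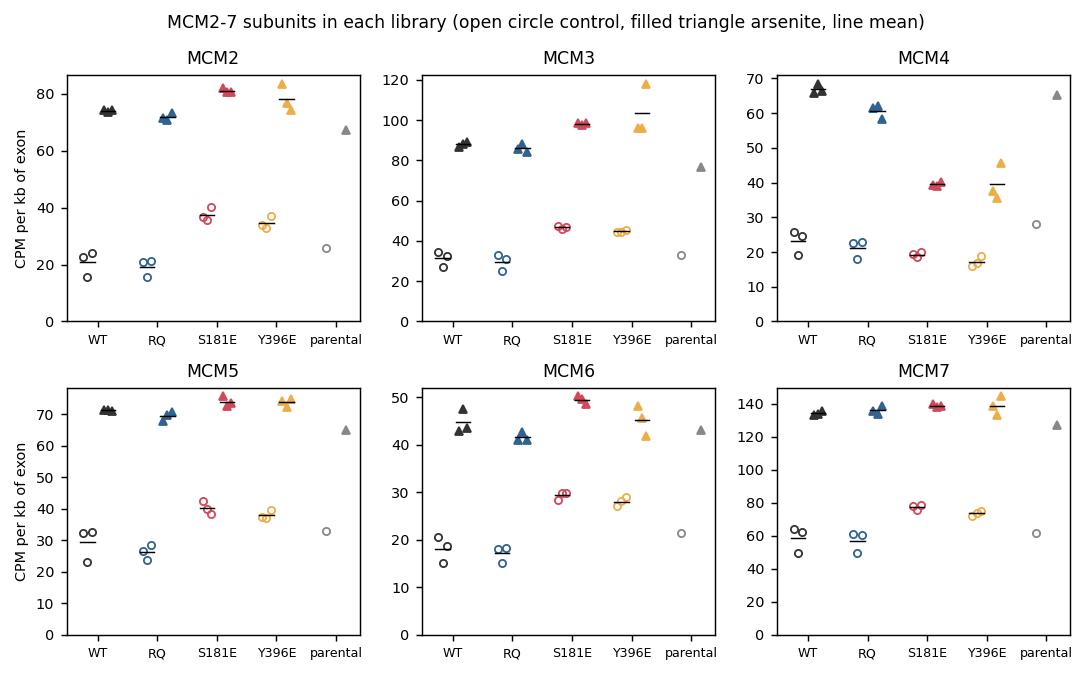
Level of each MCM2-7 subunit in every library (y axis, CPM per kb of exon) by population, with control libraries as open circles, arsenite libraries as filled triangles and group means as lines. In control, S181E and Y396E lie above WT and RQ for MCM2, MCM3, MCM5, MCM6 and MCM7, and not for MCM4, where the S181E libraries hold 18.6 to 19.9 and the WT libraries 19 to 25.8 CPM per kb.

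MCM4 lies in a stretch of chromosome 8, from HGSNAT (start 43140464) to the end of the chromosome, that was lower as a whole in S181E and Y396E. The boundary comes from an earlier look at these data. The 207 tested genes of the stretch had a median log2 change of -0.62 in S181E and -0.60 in Y396E control cells, and 202 and 203 of them had a negative change. The 115 tested genes of chromosome 8 before it had medians of 0.12 and 0.11. In control MCM4 ranked 179 of 207 from the lowest in S181E and 149 of 207 in Y396E, so most genes of the stretch were lower than it. In arsenite the stretch had medians of -0.57 and -0.60. There MCM4 ranked 55 and 57 of 207 from the lowest, so most genes of the stretch lay above it. The other chromosome 8 member, GINS4 (41529221 to 41545030), a GINS subunit, lies before the boundary. It was at 23, 20.6 and 22 CPM in WT control libraries, 30.2, 28.5 and 30.6 in S181E and 28.3, 27.8 and 34 in Y396E. All S181E and Y396E libraries were above WT, with log2 changes of 0.44 (SE 0.10) and 0.46 (SE 0.10), in the direction of the other members. A change in the number of copies of the stretch and a change in its transcription cannot be told apart in RNA counts.

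**Figure D3:**
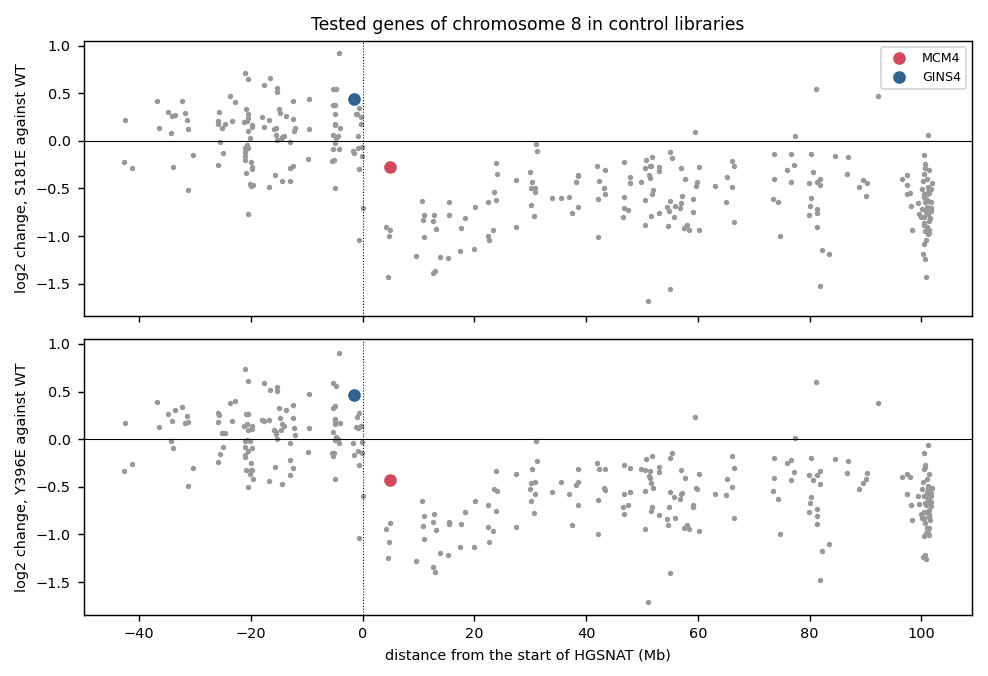
Log2 change of each tested chromosome 8 gene in control libraries of S181E (top) and Y396E (bottom) against WT, by distance in Mb from the start of HGSNAT (dotted line). Genes to the right have medians of -0.62 and -0.60. MCM4 (red) lies among the less lowered of them, and GINS4 (blue) lies left of the line at 0.44 and 0.46.

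Of 6 helicase activation genes, 5 were called higher in S181E control cells and 4 in Y396E. MCM10, a scaffold that joins the helicase to primase, was at 32.5, 25.8 and 30.8 CPM in WT control libraries, 44, 42.6 and 41.2 in S181E and 36.6, 39.6 and 41.6 in Y396E. Both lay above all WT libraries, with log2 changes of 0.51 (SE 0.11) and 0.40 (SE 0.11). GINS2, GINS3 and GINS4 were called higher in both, CDC45 in S181E (0.28, with 0.22 in Y396E), and GINS1 in neither (0.16 and 0.11). The CDC45 call was lost without WT control replicate 2 (0.24) or S181E control replicate 3 (0.25). The GINS3 call in Y396E was lost without Y396E control replicate 3 (0.26).

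Among polymerase and primase genes, 6 of 8 tested were higher in each of S181E and Y396E, and POLD2 and POLE were not called. PRIM2, the large primase subunit, was at 15, 13.9 and 16.8 CPM in WT control libraries, 21.9, 22.3 and 22.1 in S181E and 24.5, 22.9 and 25 in Y396E. All lay above WT, with log2 changes of 0.54 (SE 0.08) and 0.66 (SE 0.08). PRIM2 has a near-identical pseudogene copy, so the assignment of its reads is uncertain. POLA1, which extends the primers, was at 12.7, 13.9 and 14.7 CPM in WT, 19.2, 19.6 and 18.4 in S181E and 17.9, 18.9 and 17.7 in Y396E, again above all WT libraries (0.47 and 0.40). POLD2, an accessory subunit of polymerase delta, had log2 changes of 0.02 and 0.00, and POLE, the catalytic subunit of polymerase epsilon, had -0.05 and -0.11.

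All 6 clamp and clamp loader genes were called higher in both populations. The RFC2 call in S181E was lost without S181E control replicate 3 (0.26), and the RFC3 call in Y396E without WT control replicate 3 (0.26). RFC1, the large loader subunit, was at 34.2, 29.6 and 34.9 CPM in WT control libraries, 49.5, 44.7 and 45.1 in S181E and 44.5, 49.6 and 42.9 in Y396E. All S181E and Y396E libraries exceeded WT, with log2 changes of 0.50 (SE 0.07) and 0.47 (SE 0.07). PCNA was higher by 0.31 and 0.30, close to the smallest changes of the role.

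RPA1, the DNA-binding subunit of the single-strand binding complex, was at 111, 87 and 107 CPM in WT control libraries, 159, 158 and 161 in S181E and 143, 157 and 162 in Y396E. It was higher by 0.65 (SE 0.07) and 0.60 (SE 0.07), with no overlap with WT. RPA2 was higher by 0.28 and 0.27, just past the fold threshold of 0.26 and under it without WT control replicate 3 (0.24 in each), and RPA3 was at -0.06 and -0.04 without a call. FEN1, the nuclease that trims Okazaki fragment flaps, was at 114, 94.6 and 116 CPM in WT, 166, 163 and 177 in S181E and 146, 152 and 161 in Y396E. It was higher by 0.64 (SE 0.07) and 0.50 (SE 0.07), also clear of WT. The ligase LIG1 was at 49.1, 34.1 and 48.3 CPM in WT, 54.2, 49.7 and 57.7 in S181E and 53.4, 49.1 and 52 in Y396E. Its call in S181E (0.29, adjusted p = 0.0148) was lost without WT control replicate 2 (0.15) or S181E control replicate 3 (0.24), and Y396E (0.23) was not called.

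All 4 nucleotide supply genes were higher in both populations. RRM1, the large subunit of ribonucleotide reductase, was at 40.3, 32.8 and 40.9 CPM in WT control libraries, 61, 61.4 and 64.6 in S181E and 52.6, 56.1 and 61.1 in Y396E. No WT library reached them, and the log2 changes were 0.71 (SE 0.07, adjusted p = 2.05e-08) and 0.57 (SE 0.07, adjusted p = 7.11e-07). RRM2, its small subunit, was higher by 0.57 and 0.52. TYMS in Y396E (0.27) lay at the fold threshold, and its call was lost under DESeq2 (0.26), other fits, and without WT control replicate 3 or Y396E control replicate 3 (0.25 each). Of the G1/S regulators, the transcription factor E2F1 was at 66.4, 56.8 and 64.9 CPM in WT, 76.9, 77.5 and 80.6 in S181E and 74.5, 68.9 and 79.7 in Y396E. It was called higher in S181E (0.32, adjusted p = 0.000459), a call lost without WT control replicate 2 (0.26), and not in Y396E (0.25). CCNE1, cyclin E1, was at 55.4, 53.9 and 54.9 CPM in WT, 49, 50.3 and 52.9 in S181E and 53.8, 52.2 and 55.2 in Y396E, and was not called (-0.11 and -0.03), although the S181E libraries all lay below WT.

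RQ control cells were not separated from WT by any member. No member was called by edgeR's quasi-likelihood test or by DESeq2, and 7 members had an unadjusted p under 0.05, as did 1285 of all tested genes. The background was 1.00% higher and 0.429% lower, and the members' median log2 change was -0.08. Of all called genes 70% were higher, and 38.3% under scaling by totals. Replicate numbers paired these libraries, and the fits with the replicate as a block also called 0 members. Without WT control replicate 2, however, 4 members were called lower, namely ORC1 (-0.33), MCM5 (-0.30), RPA1 (-0.29) and FEN1 (-0.28). RQ control replicate 2 was also the lowest of its group, with members at 3528 CPM in sum beside 3668 in WT control replicate 2. It stayed in that fit, which broke the pair, so these 4 calls are not separate evidence of a difference. In arsenite 0 members were called between RQ and WT by either tool, beside 1.36% of all genes higher and 0.154% lower, and 7 members had an unadjusted p under 0.05. There 89.9% of all called genes were higher, and 77.7% under scaling by totals. Between Y396E and S181E 0 members were called in control by either tool, 0 at an unadjusted p under 0.05, and 0% of all genes. In arsenite 0 members were called between Y396E and S181E by either tool and 0% of all genes, and 3 members passed an unadjusted threshold of 0.05. When Y396E arsenite replicate 2 was left out, MCM10 (-0.39) and CCNE1 (0.27) were called. Intervals of the control difference reached from -0.33 to 0.11 for MCM2 and from -0.03 to 0.29 for PRIM2, so differences of this size were not excluded.

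The summed level of all 43 members in control was 3895 ± 211 CPM for WT, 3717 ± 166 for RQ, 5071 ± 19.7 for S181E and 4911 ± 153 for Y396E (SD, n = 3). The parental control library was at 4462 CPM, between these. A list of 15 G2/M genes, which are highest later in the cycle, moved with the members, at 1025 ± 37.2 CPM in WT control, 976 ± 37.5 in RQ, 1500 ± 2.89 in S181E, 1490 ± 44.9 in Y396E and 1285 in the parental library. Their part in the result was not tested.

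Upstream sequence was examined because the members moved together in S181E and Y396E. RefSeq windows of 250 bases before the start (GRCh38.p14) matched 37 of the 43 members, and MCM4, MCM5, GINS4, POLD3, RPA2 and RPA3 had none. The E2F-type letters TTTGGCGC, TTTCCCGC, TTTCGCGC or TTTGCCGC stood on either strand in 13 of the 37 windows (35.1%), against 2.79% of 27305 windows of all genes and 4.81% of 7508 windows of tested genes. CCAAT, on either strand, stood in 21 (56.8%), against 33% and 35.6%. Of the 12 tested members with E2F-type letters 11 were called higher in S181E control cells, and of the 24 without them 21. Of all tested genes 15.7% were called higher there, and the share among all genes with these letters was not computed. The stretches below lie in these windows outside annotated exons, with matches in capitals. MCM6 (chr2:135876444-135876693, minus strand), MCM3 (chr6:52284882-52284992, minus strand) and PCNA (chr20:5126627-5126872, minus strand) are shown as members with both motifs. CDC6 (chr17:40287629-40287878, plus strand) is shown as one with CCAAT and without the E2F-type letters searched. MCM2 (chr3:127598268-127598409, plus strand) is shown as the member with the largest change and neither.
MCM6: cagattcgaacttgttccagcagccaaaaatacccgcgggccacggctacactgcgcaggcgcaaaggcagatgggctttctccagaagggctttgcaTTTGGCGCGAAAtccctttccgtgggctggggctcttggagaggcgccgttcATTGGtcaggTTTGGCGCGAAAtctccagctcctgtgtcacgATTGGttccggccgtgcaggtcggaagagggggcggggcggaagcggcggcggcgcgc
MCM3: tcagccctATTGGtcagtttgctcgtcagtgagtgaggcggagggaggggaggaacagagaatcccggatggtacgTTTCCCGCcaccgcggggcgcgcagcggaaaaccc
PCNA: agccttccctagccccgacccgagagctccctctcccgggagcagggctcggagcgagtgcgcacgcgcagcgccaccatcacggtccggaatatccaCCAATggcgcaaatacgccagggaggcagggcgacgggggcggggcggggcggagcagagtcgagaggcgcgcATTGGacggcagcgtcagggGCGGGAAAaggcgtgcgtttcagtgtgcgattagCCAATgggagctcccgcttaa
CDC6: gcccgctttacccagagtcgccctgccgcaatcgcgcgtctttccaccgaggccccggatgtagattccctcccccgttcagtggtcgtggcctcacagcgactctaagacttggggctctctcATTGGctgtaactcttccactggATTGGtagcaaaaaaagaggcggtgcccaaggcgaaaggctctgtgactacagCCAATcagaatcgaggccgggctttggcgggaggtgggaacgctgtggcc
MCM2: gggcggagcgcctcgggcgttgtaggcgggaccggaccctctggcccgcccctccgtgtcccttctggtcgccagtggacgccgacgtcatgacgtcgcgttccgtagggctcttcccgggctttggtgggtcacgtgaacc
The 4 E2F-type matches of MCM6 form 2 runs of letters, since matches on opposite strands overlap in each. A match describes the letters only. Its absence in CDC6, or in MCM2, whose log2 change was the largest at 0.84, says only that these exact letters were not in the window. Near matches were not searched.

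Among the members changed by 2 h of arsenite, most rose in every population. The share of members changed in either direction was near that of all genes in WT, while the upward share exceeded that of all genes. In WT cells 26 members rose and 5 fell (background 36.3% higher and 35.9% lower), with a median log2 change of 0.55 beside -0.01 for all tested genes. In RQ 26 rose and 7 fell (background 37.1% and 35.8%), in S181E 23 rose and 8 fell (background 32.0% and 33.3%), and in Y396E 22 rose and 8 fell (background 32.9% and 32.9%). The medians were 0.58, 0.32 and 0.33. Scaling by totals moved the median of all genes up by 0.16 in WT and 0.17 in RQ, and 29 members then rose and 4 fell in each. With it the share of rises among all called genes was 61.6% in WT and 62% in RQ, against 50.3% and 50.9%.

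The arsenite changes moved with exon length. Divided at the members' median exon length of 3083 bases, the 21 longer members had a median log2 change of 1.30 in WT and the 21 shorter members 0.01. The medians were 1.40 and -0.03 in RQ, 0.99 and -0.05 in S181E, and 0.94 and -0.04 in Y396E. Over all tested genes, longer and shorter ones had medians of 0.10 and -0.19 in WT, a smaller gap in the same direction. The division was chosen after the data were seen, and the part of length in the arsenite changes was not tested.

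All 6 MCM2-7 subunits rose in all populations. MCM2 went from 78.2, 54.3 and 82.1 CPM in WT control to 255, 252 and 255 in WT arsenite libraries, and reached 245, 243 and 251 in RQ, 282, 277 and 277 in S181E and 286, 263 and 255 in Y396E. The arsenite libraries of the 4 populations lay close together although their controls did not, and the log2 changes were 1.83 for WT (SE 0.11, adjusted p = 5.67e-14), 1.89 for RQ, 1.11 for S181E and 1.17 for Y396E. MCM4 reached 285, 298 and 289 CPM in the WT libraries, 267, 270 and 253 for RQ, 171, 169 and 175 for S181E and 163, 155 and 198 for Y396E. It rose by 1.53 in WT, 1.52 in RQ and 1.04 in S181E, and 2.3-fold in Y396E, from a mean of 74.7 to 172 CPM. The highest Y396E value, 198 CPM, came from the arsenite library that counted the fewest genes. S181E and Y396E stayed below WT and RQ in every library.

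ORC1 rose from 16.3, 14.3 and 17.7 CPM in WT control to 47.5, 50.8 and 51.6 CPM, a log2 change of 1.63 (SE 0.08). CDC6 and CDT1 rose by 0.74 and 0.56 in WT, whereas GMNN (0.24) and ORC6 (0.01) were not called. RRM1 had the largest rise of all members, from 40.3, 32.8 and 40.9 to 158, 162 and 160 CPM in WT, a log2 change of 2.07 (SE 0.07, adjusted p = 2.24e-18). It reached 167, 159 and 159 CPM in RQ, 179, 188 and 178 in S181E and 176, 176 and 188 in Y396E. Its partner RRM2 rose by only 0.45 in WT, and TYMS (-0.07) and TK1 (0.17) were not called.

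Of the polymerase and primase genes 7 of 8 rose in WT. POLA1 reached 43.4, 47.9 and 45.5 CPM from 12.7, 13.9 and 14.7, a log2 change of 1.73 (SE 0.07). PRIM2 and POLD1 rose by 1.56 and 1.48, and POLD2 fell by 0.40. POLD2's call was lost in WT and RQ under scaling by totals (-0.24 and -0.20). RFC1 reached 90.4, 89.8 and 83.5 CPM in WT, a log2 change of 1.41 (SE 0.07), while RFC4 and RFC5 rose by 0.55 and 0.63 and RFC2, RFC3 and PCNA were not called. RPA1 reached 225, 220 and 217 CPM in WT and rose by 1.12 (SE 0.07), whereas RPA3, the smallest subunit of the same complex, fell by 0.70.

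LIG1 reached 108, 105 and 116 CPM in WT and rose by 1.32 (SE 0.10). FEN1 reached 149, 155 and 152 CPM and rose by 0.49 (SE 0.07). MCM10 reached 45.3, 50.3 and 46.2 CPM and rose by 0.67 (SE 0.11), GINS2 fell by 0.58, and the other GINS genes were not called in WT. GINS4 was at 23.1, 24.5 and 22.6 CPM in WT arsenite libraries (0.10), overlapping its control values. In Y396E it fell by 0.29, a call lost without Y396E arsenite replicate 3 (-0.16) or Y396E control replicate 3 (-0.19).

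The G1/S regulators moved against the majority. CCNE1 was at 34.1, 37.1 and 36.8 CPM in WT arsenite libraries, down from 55.4, 53.9 and 54.9, and fell by 0.60 (SE 0.09, adjusted p = 1.12e-06). E2F1 was at 44.8, 47.6 and 45.8 CPM, down from 66.4, 56.8 and 64.9, and fell by 0.44 (SE 0.07, adjusted p = 2.48e-06). Both also fell in RQ (-0.87 and -0.50), S181E (-0.63 and -0.52) and Y396E (-0.55 and -0.58).

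**Figure D4:**
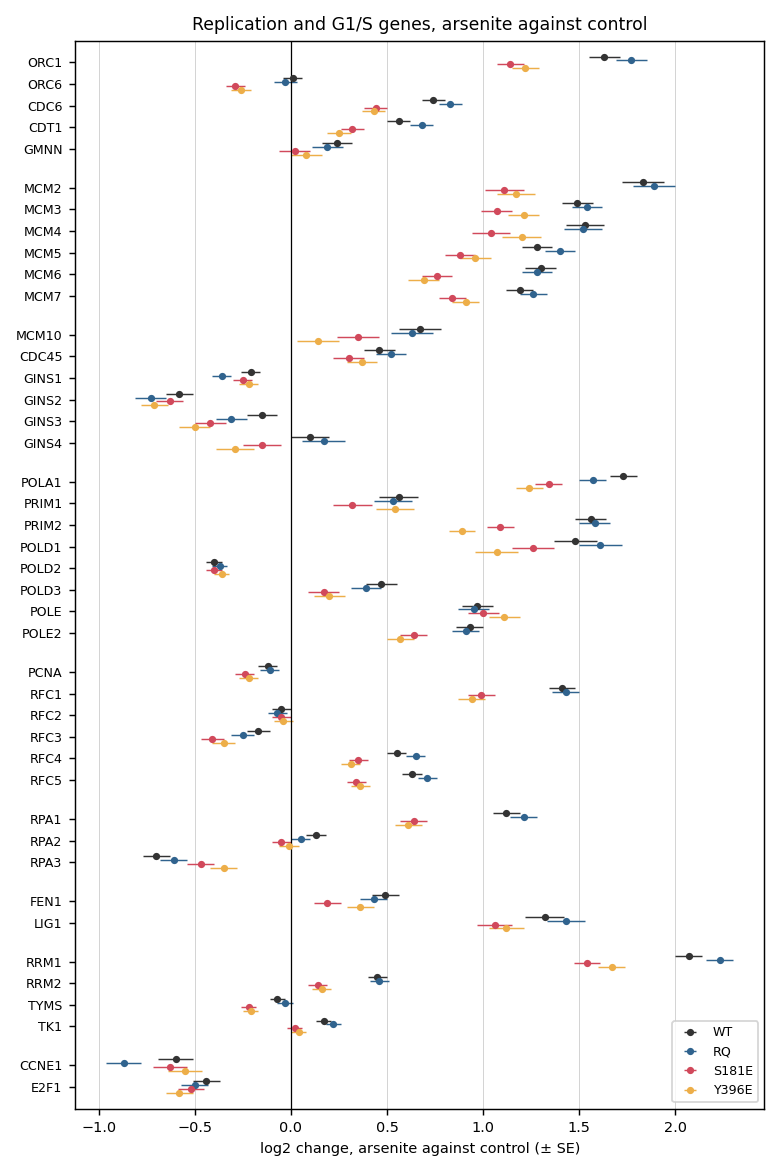
Log2 change of each tested member, arsenite against control (x axis, error bars SE), in WT, RQ, S181E and Y396E cells, with members grouped by role. The MCM2-7 subunits, ORC1, POLA1, RFC1 and RRM1 lie to the right in all populations, with S181E and Y396E left of WT and RQ (MCM2 at 1.11 and 1.17 against 1.83 and 1.89), and CCNE1 and E2F1 lie left of 0.

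After arsenite fewer members separated S181E or Y396E from WT, and fewer of all tested genes were called as well. In S181E 6 members were called higher and MCM4 lower (background 5.32% higher and 8.42% lower), with a median log2 change of 0.16. In Y396E 6 were called higher and MCM4 lower (background 9.77% and 11.9%), with a median of 0.09. The upward share in Y396E was near that of all genes, and the downward share below it. Without Y396E arsenite replicate 3, the PRIM1 (0.22) and RPA3 (0.23) calls were lost, GINS2 (0.34) was called, and the count was 6. GMNN was the largest difference upward, at 68.4, 75 and 67.4 CPM in S181E and 64.4, 67.4 and 82.9 in Y396E against 48.1, 54.2 and 51.5 in WT arsenite libraries. No library overlapped, and the log2 differences were 0.45 (SE 0.08) and 0.48 (SE 0.08). FEN1 (0.34 and 0.37), RFC2 (0.29 and 0.30) and TK1 (0.28 and 0.28) were called higher in both, GINS2 and RRM2 in S181E, and PRIM1 (0.36) and RPA3 (0.31) in Y396E. The RRM2 call in S181E was lost without WT arsenite replicate 1 (0.25) or S181E arsenite replicate 1 or 2 (0.26 each). The TK1 call was lost in S181E without S181E arsenite replicate 1 (0.24) and in Y396E without Y396E arsenite replicate 1 (0.23). MCM4 was lower by 0.76 on the log2 scale in each (-0.76, SE 0.09, adjusted p = 1.04e-06 and 8.45e-07), and all libraries lay below WT. Among all called genes 38.7% were higher in S181E, and 55.9% under scaling by totals.

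The response to arsenite itself was smaller in S181E and Y396E than in WT for many members. In S181E 18 members had a lower response and 0 a higher one (background 6.98% higher and 9.41% lower), and in Y396E 17 were lower and RPA3 higher (background 10.3% and 11.1%). The median difference was -0.26 and -0.27 on the log2 scale, beside -0.03 and -0.02 for all tested genes. MCM2 differed by -0.71 (SE 0.14, adjusted p = 0.00209) in S181E and -0.66 (SE 0.14, adjusted p = 0.00274) in Y396E, and MCM6 by -0.54 and -0.61. These differences equal the gap to WT in arsenite minus the gap in control. For MCM4 in S181E and RPA3 in Y396E the gap was larger in arsenite than in control. For the other called members the differences restate the larger control gap and are not separate evidence of it. They also moved with exon length, with medians of -0.39 for longer and -0.18 for shorter members in S181E and -0.38 and -0.13 in Y396E, beside -0.08 and 0.04, and -0.07 and 0.06, over all genes. The part of length was not tested. The counts rested in part on WT control replicate 2, the library with the lowest members. Without it 9 members had a lower response in S181E and 10 in Y396E, and MCM5 and MCM7 in Y396E fell to -0.18 each. The RPA3 call in Y396E was lost without it (0.28, adjusted p = 0.0504). The CDT1 (-0.24) and RFC5 (-0.26) calls in Y396E were lost without Y396E arsenite replicate 3. In the fit of only the groups compared the Y396E count was 10. Scaling by totals gave 25 and 24 lower, with 13% and 18.2% of all called genes higher against 42.6% and 48.1%. RQ did not differ from WT, with 0 members called by edgeR or DESeq2 (background 0.220% higher and 0.00% lower), 1 at an unadjusted p under 0.05 and a median of 0.01.

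**Figure D5:**
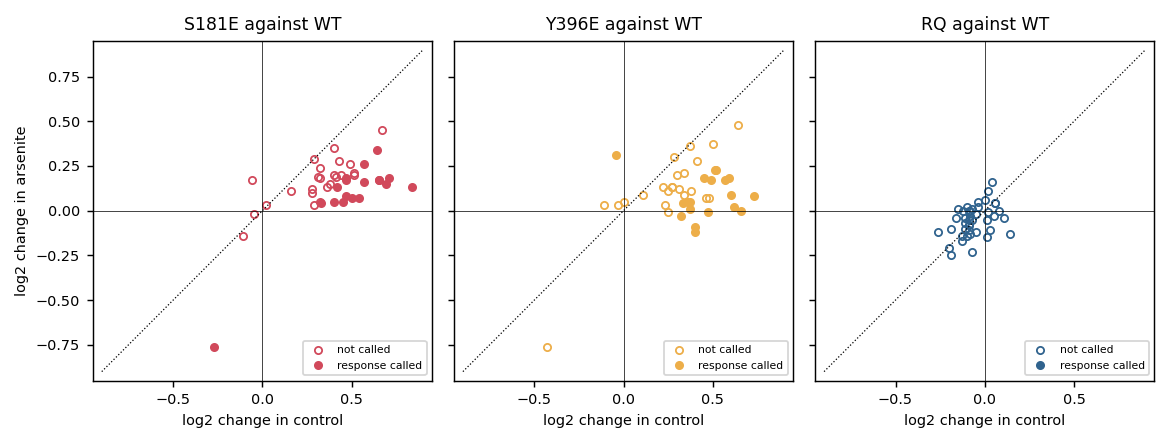
Log2 change of each tested member against WT in control (x axis) and in arsenite (y axis) for S181E, Y396E and RQ, with filled points for members whose arsenite response differed from WT and a dotted line of equal values. For S181E and Y396E most points lie right of 0 and below the line, MCM4 lies at -0.76 on the y axis, and RQ points gather near 0 with none filled.

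POLA2, the member below the filter, was at 4.14, 2.83 and 3.31 CPM in WT control libraries, 5.77, 5.41 and 4.24 in S181E and 4.19, 4.12 and 5.54 in Y396E. In a fit without the filter its log2 change was 0.57 in S181E (SE 0.20, adjusted p = 0.0355) and 0.41 in Y396E (SE 0.20, adjusted p = 0.158), and 1.01 with arsenite in WT (SE 0.20, adjusted p = 4.78e-05).

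Other genes of the pathway were taken from 5 lists. Of 14 further licensing and firing genes 7 were higher and 1 lower in S181E control cells (15.7% and 15.4% of all genes), with a median of 0.26. The kinase CDC7 that fires origins was highest at 0.45, and RECQL4, a helicase needed for firing, was lower at -0.51. Of 15 further fork and chromatin assembly genes 8 were higher and 0 lower (median 0.30), led by CHAF1B of the histone chaperone CAF-1 at 0.54. Of 8 further nucleotide genes 3 were higher and 1 lower (median 0.24), from SAMHD1, a dNTP hydrolase, at 0.73 to RRM2B, an alternative small reductase subunit, at -0.75. Of 21 further G1/S regulators 11 were higher and 3 lower (median 0.28), from the kinase CDK6 at 1.08 to the transcription factor E2F5 at -1.01. Of 15 G2/M genes 14 were higher and 0 lower (median 0.54), led by the spindle factor TPX2 at 0.87.

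Of the 5 listed genes called lower in S181E, 3 lie on chromosome 8 beyond the boundary. RECQL4, RRM2B and E2F5 were at -0.51, -0.75 and -1.01 in S181E, and all 3 were also lower in Y396E, with RECQL4 at -0.60 and RRM2B at -0.69. The other two in S181E, CDKN1A (-0.32) and RBL2 (-0.33), lie elsewhere and are named after their values were seen. DSCC1 (-0.14 and -0.22), CCNE2 (-0.17 and -0.18) and MTBP (0.05 and 0.01), also in the stretch, were not called. In Y396E, where 14.5% of all genes were higher and 14.2% lower, the counts were 2 higher and 1 lower of 14 for licensing and firing, a share near that of all genes, 6 and 0 of 15 for fork and chromatin assembly, 2 and 1 of 8 for nucleotides, 10 and 2 of 21 for G1/S regulators and 14 and 0 of 15 for G2/M. In RQ 1 G2/M gene, CDC20, was lower at -0.27 and 0 other listed genes were called.

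With 36.3% of all genes higher and 35.9% lower, arsenite in WT raised 12 of 14 further licensing and firing genes and lowered 0, with MTBP, an activator of origin firing, at 1.70. It raised 9 and lowered 3 of 15 fork and chromatin assembly genes, from the clamp loader gene CHTF18 at 1.52 to POLE4 at -0.84. Nucleotide genes showed 2 rises and 4 falls of 8, not far from those shares, from SAMHD1 at 1.36 to the kinase DCK at -0.53. G1/S regulators showed 2 rises and 9 falls of 21, from RB1 at 1.45 to TFDP1, the E2F dimerization partner, at -0.77. All 15 G2/M genes rose (median 1.27), led by the mitotic kinesin KIF20A at 2.75 (SE 0.07).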

How the data were processed

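Poly(A) RNA was measured in 26 libraries. The authors aligned reads to hg38 with STAR 2.7.11b and counted them per gene with featureCounts of Subread 2.0.6 (strand setting 2, GENCODE 46 per the file headers), and the deposited values are raw counts. Symbols and biotypes came from GENCODE 44, which matched 62541 of 63086 identifiers (99.1%).

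Protein-coding genes above 10 CPM in at least 12 of the 24 transgenic libraries were tested (9099), with TMM scaling and the quasi-likelihood test of edgeR 4.0.16 (R 4.3.3), 1 mean per group and Benjamini-Hochberg adjustment over all tested genes. Called means adjusted p under 0.05 and fold above 1.2 (log2 0.26). SE is the log2 change divided by the square root of F. The scripts were tested on simulated data. Members, lists and boundary were chosen with earlier results of these data known. Values per library are given for chromosome 8 members, members called in RQ (0) and, in each role, the member with the largest change in S181E control or WT arsenite. Replicate numbers paired RQ with WT at every number (correlations of deviations 0.29, 0.53 and 0.47 in control, 0.15 each in arsenite), from the data and not the labels. No other comparison was paired at every number. In control, S181E against WT was at 0.01, 0.24 and 0.31, and Y396E against WT at -0.04, 0.05 and 0.42. RefSeq promoter windows lie on GRCh38.p14, the build of hg38. Alternatives are in the closing section.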

Additional observations from a re-analysis of the deposited data

Results flagged for a closer look

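The arsenite response (arsenite minus control, log2) differed from that of WT for 18 members in S181E and 18 in Y396E, by a test of the difference itself. With 3 libraries a group, single values were not tested for outliers.

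The members with a smaller response in both, with the difference in S181E and then in Y396E, were ORC1 (-0.49 and -0.41), CDC6 (-0.30 and -0.31), MCM2 (-0.71 and -0.66), MCM5 (-0.40 and -0.32), MCM6 (-0.54 and -0.61), MCM7 (-0.35 and -0.28), POLA1 (-0.39 and -0.49), PRIM2 (-0.47 and -0.66), POLE2 (-0.29 and -0.36), RFC1 (-0.42 and -0.48), RFC5 (-0.29 and -0.27), RPA1 (-0.48 and -0.51), RRM1 (-0.53 and -0.41) and RRM2 (-0.31 and -0.29). In S181E alone the test was passed by ORC6 (-0.29), MCM3 (-0.41), MCM4 (-0.49) and FEN1 (-0.30). In Y396E alone it was passed by CDT1 (-0.31), MCM10 (-0.52), GINS3 (-0.35) and RPA3 (0.35), of which RPA3 fell less than in WT. Whether S181E and Y396E differ from each other in response was not tested. Without WT control replicate 2 the counts were 9 and 10 members. The calls lost then were CDC6 (-0.24), MCM3 (-0.32), MCM4 (-0.37), MCM5 (-0.26), MCM7 (-0.25), POLE2 (-0.26), RFC5 (-0.24), FEN1 (-0.21) and RRM2 (-0.25) in S181E. In Y396E they were CDC6 (-0.25), MCM5 (-0.18), MCM7 (-0.18), MCM10 (-0.43), GINS3 (-0.34), RFC5 (-0.22), RPA3 (0.28) and RRM2 (-0.23). POLE2 and FEN1 in S181E were lost in 17 and 10 of the fits that left out libraries, and MCM5 and MCM7 in Y396E in 8 each.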

How the results depend on the processing

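No called member changed sign under any alternative. Counts of called members stayed within 1.5 times under DESeq2, its size factors in edgeR, all gene types and the replicate block. The exceptions follow. Without the fold threshold 14 members instead of 7 were called in S181E against WT in arsenite, and 17 instead of 7 in Y396E. In RQ against WT in arsenite 1 member instead of 0 was called under scaling by totals (GINS1, -0.27), without the filter on low counts (FEN1, -0.28) and without the fold threshold (GINS1, -0.23). In the fit of only the groups compared, the Y396E response count was 10 instead of 18.

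Leaving out each library in turn gave 34 to 37 called members in S181E against WT in control, 30 to 36 in Y396E and 0 to 4 in RQ, the 4 without WT control replicate 2. The ranges were 6 to 9 in S181E, 6 to 8 in Y396E and 0 to 0 in RQ in arsenite, and 0 to 2 in Y396E against S181E in arsenite, the 2 without Y396E arsenite replicate 2 (MCM10, -0.39, and CCNE1, 0.27). Arsenite in WT gave 31 to 32, S181E 31 to 32, Y396E 29 to 31 and RQ 32 to 34. Response counts ran from 9 to 21 in S181E and from 10 to 22 in Y396E, the lowest without WT control replicate 2 in both, and 0 to 0 in RQ. Without both WT control replicate 2 and Y396E arsenite replicate 3, a fit added after the data were seen, 5 members were called lower in RQ control and 11 had a lower response in S181E. RQ control replicate 2, also low, stayed in the fits without WT control replicate 2. The cause of these shifts was not tested.

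With the replicate number as a block, 37 members were called in S181E against WT in control, 33 in Y396E, and 18 and 22 had a different response in S181E and Y396E. The block added MCM3, MCM4, GINS4 and POLD1 to the Y396E response and changed no other member's call. Labels do not say what a replicate number shares. Median errors of 0.08 for pairs of groups and 0.11 for responses set the size of change that 3 libraries can show.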
